A study of Homo sapiens with 8 samples.

Results

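The transcripts of the mitochondrial genome were followed across 8 RNA sequencing libraries of human cholangiocarcinoma (CCA), a cancer of the bile ducts. Members were all genes whose symbol begins with MT-, which gave 37 of the 56269 genes in the tables: 13 mRNAs, 2 rRNAs and 22 tRNAs. The 2 cell lines were SNU1079 and SSP25, both labelled wildtype, although the paper that reported these data found IDH1 and ARID1A mutations in SNU1079. Each line was treated for 48 h with vehicle (0.01% DMSO), BETp (ARV825 at 40 nM, a degrader of BET bromodomain proteins), mTORi (50 nM of AZD8055, which blocks the kinase mTOR) or BETp + mTORi, called the combination below, whose doses the labels do not give. There was 1 library for each line and treatment, so the lines stood as replicates of a drug effect, and p-values measure only the spread between these libraries.

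Human mitochondria carry a small circular genome of 16569 bases. Both of its strands are copied in long stretches by a dedicated polymerase, POLRMT, and the tRNAs that lie between most of the genes are cut out, which frees the mRNAs and rRNAs. The rRNAs build the mitochondrial ribosome, and the mRNAs encode core subunits of respiratory chain complexes I, III, IV and of ATP synthase (complex V), whose other subunits come from nuclear genes. Complex II is made of nuclear subunits alone. In the GENCODE 44 annotation on GRCh37, 28 of the 37 genes were transcribed from the heavy strand, and 9 from the light strand, namely MT-ND6 and 8 tRNAs.

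Some of these genes overlap or abut, which bears on how their reads can be shared out. MT-ATP8 (M:8366-8572) and MT-ATP6 (M:8527-9207) share 46 bases, MT-ND4L (M:10470-10766) and MT-ND4 (M:10760-12137) share 7, and MT-ND5 (M:12337-14148, plus strand) meets MT-ND6 (M:14149-14673, minus strand) end to end with no base between them. The reference sequences (GRCh37, plus strand, 5′ to 3′) are shown for the stretches chrM:8507-8592, chrM:10740-10786 and chrM:14119-14178, since the ratios described below belong to these gene pairs. Capitals mark the shared bases in the first pair of sequences and the last 30 bases of MT-ND5 in the last, where the lower-case bases are the far end of MT-ND6 on the opposite strand.
MT-ATP8/MT-ATP6 overlap: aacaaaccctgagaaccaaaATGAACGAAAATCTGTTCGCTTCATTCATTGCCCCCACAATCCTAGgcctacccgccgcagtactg
MT-ND4L/MT-ND4 overlap: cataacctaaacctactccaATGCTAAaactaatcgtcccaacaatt
MT-ND5/MT-ND6 junction: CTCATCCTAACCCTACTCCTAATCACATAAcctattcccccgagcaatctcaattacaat

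Library preparation marked the strand, yet whether reads were counted by strand is not stated, so MT-ND6 reads and antisense RNA copied from the heavy strand of the same stretch cannot be told apart in these values. The values were TPM (transcripts relative to a fixed total), which are scaled for gene length and sum to nearly the same total in every library. They keep no read depth, and the depth behind each value is therefore unknown. With a fixed total, more mitochondrial RNA and less nuclear RNA per cell give the same share, as do fewer cells of a type and less RNA per cell, and these cannot be told apart.

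The CCA label was checked against markers. All 6 bile duct epithelium markers were found, with KRT7 between 404 and 3746 TPM and KRT19 between 307 and 1927 TPM, although EPCAM lay between 0.90 and 1.74 TPM in SSP25 against 59.7 to 101 TPM in SNU1079. Of 6 hepatocyte markers 3 reached 1 TPM in any library, led by SERPINA1 at 41.75, 16.55, 17.71 and 7.64 TPM in SNU1079 with vehicle, BETp, mTORi and the combination and at no more than 0.57 TPM in SSP25. Albumin (ALB) stayed at 0.21 TPM or less and APOB was listed at 0 in all libraries. Of 8 blood and stroma markers 3 reached 1 TPM, with HBB listed at 0 throughout and PTPRC at no more than 0.24 TPM. The summed level of these 8 genes was 1088, 624, 677 and 349 TPM in SNU1079 with vehicle, BETp, mTORi and the combination, and 157, 144, 212 and 182 TPM in SSP25. In SNU1079 this sum was mostly COL1A1, the collagen I gene, at 1003, 546, 599 and 272 TPM. In SSP25 it was mostly CD68, a macrophage marker, at 153, 141, 210 and 180 TPM, and CD68 measured 76.4 to 85.5 TPM in SNU1079. The part of these markers in the results below was not tested.

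All 22 mitochondrial tRNAs, 59 to 75 bases long, were listed at 0 TPM in all 8 libraries. This included MT-TV, which carries valine and sits between both rRNA genes (MT-RNR1, M:648-1601, and MT-RNR2, M:1671-3229). Its sequence is shown in full, chrM:1602-1670, as an example of how short these genes are.
MT-TV: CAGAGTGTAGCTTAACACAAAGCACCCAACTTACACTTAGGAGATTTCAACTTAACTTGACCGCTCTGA
A value of 0 for genes that every cell uses says that they were listed at 0, not that the tRNAs were missing from the cells. The remaining 15 members, the 13 mRNAs and 2 rRNAs, passed the filter of 1 TPM in at least 2 libraries, along with 16060 genes in all.

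Levels per unit length fell in an order that was largely kept within a line but not between lines. In SNU1079 MT-ATP8 had the highest TPM in all 4 libraries, 1.04 to 1.18 times MT-CO2, the next in order. MT-ATP8 and MT-ATP6 are read from a shared transcript, so this is an order of TPM and not of RNA molecules. In SSP25 MT-CO3 and MT-CO1 led and could not be ordered, with MT-CO3 above MT-CO1 in 2 of 4 libraries (ratio 0.96 to 1.05). Other neighbours in the order also changed places between libraries. In SNU1079 these were MT-CO2 and MT-CO3, the run of MT-CO1, MT-ND4L, MT-RNR2 and MT-ATP6, and MT-ND5 and MT-ND6, and in SSP25 they were MT-ND3, MT-CYB and MT-ND2. At the low end, MT-ND5 and MT-ND6 had the lowest TPM of the mRNAs in both lines. MT-RNR1 was lowest of all 15 in SSP25 and 13th in SNU1079.

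**Figure D1:**
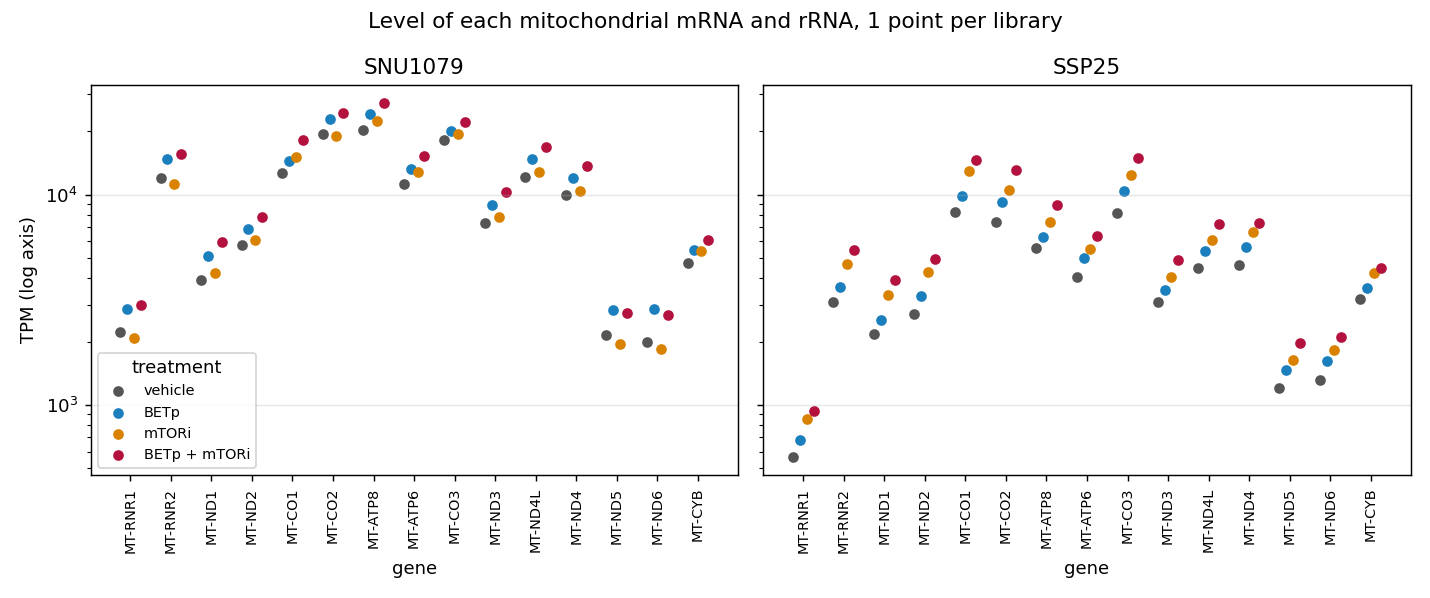
Level of each of the 13 mitochondrial mRNAs and 2 rRNAs, in genome order, in SNU1079 (left) and SSP25 (right), with TPM on a log axis and 1 point per library coloured by treatment. The combination is the highest of the 4 treatments for every gene in SSP25 and for all but MT-ND5 and MT-ND6 in SNU1079.

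The rRNAs are the RNA core of the mitochondrial ribosome. How RNA was selected for these libraries was not found, and selection can change the level of each rRNA. The rRNA levels, shares and ratio below therefore describe these libraries and need not be those of the cells. MT-RNR1, of the small subunit, measured 2211, 2846, 2078 and 2979 TPM in SNU1079 with vehicle, BETp, mTORi and the combination, and 564, 684, 859 and 936 TPM in SSP25. MT-RNR2, of the large subunit, measured 12001, 14822, 11224 and 15676 TPM in SNU1079, and 3084, 3627, 4688 and 5462 TPM in SSP25. Both rRNAs were thus lower with mTORi than with vehicle in SNU1079 and higher in SSP25. Against vehicle the log2 change under BETp was 0.32 ± 0.18 for MT-RNR1 and 0.27 ± 0.19 for MT-RNR2 (mean of the 2 lines ± SE of the limma model), under mTORi 0.26 ± 0.18 and 0.25 ± 0.19, and under the combination 0.58 ± 0.18 and 0.60 ± 0.19. Neither rRNA passed the test in a comparison of treatments (smallest limma adjusted p = 0.109, for MT-RNR2 under the combination).

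The rRNAs took a larger share of mitochondrial TPM in SNU1079 than in SSP25. That share was 9.85%, 10.3%, 8.73% and 9.72% in SNU1079 with vehicle, BETp, mTORi and the combination, and 6.10%, 5.98%, 6.43% and 6.32% in SSP25. SNU1079 was higher in 4 of 4 matched treatments, by 3.45 percentage points on average, and the lines did not overlap. An exact two-sided sign-flip permutation test over 4 pairs gave p = 0.13, the smallest value that 4 pairs allow, and an adjusted value of 0.214 over the 12 such tests made. When each gene was weighted by its length, as reads would be, the rRNA share was 15.4% to 18.1% in SNU1079 and 9.75% to 10.3% in SSP25. The share moved in opposite directions with each drug in the 2 lines, and across all pairs the exact p was 0.5 for BETp (mean difference 0.309 points, and 0.0814 to 0.450 with a library left out) and 0.625 for mTORi (-0.265 points), also of the 12.

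In these libraries the TPM of MT-RNR2 exceeded that of MT-RNR1 by a nearly fixed factor. The ratio was 5.43, 5.21, 5.40 and 5.26 in SNU1079 and, for SSP25, 5.47, 5.30, 5.45 and 5.84, in the order given above. On the log2 scale the mean difference was -0.01 for BETp (exact p = 0.875), 0.04 for mTORi (exact p = 0.5) and -0.05 for SNU1079 against SSP25, lower in 4 of 4 pairs (exact p = 0.13, adjusted 0.214).

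The ND mRNAs encode the membrane core of complex I, which takes electrons from NADH. MT-ND1 (M:3307-4262) measured 3939, 5129, 4217 and 5957 TPM in SNU1079 and 2176, 2532, 3332 and 3907 TPM in SSP25, with treatments in the order vehicle, BETp, mTORi and combination here and below. MT-ND2 (M:4470-5511) measured 5730.4, 6892, 6089 and 7855 TPM in SNU1079 and 2713, 3295, 4271 and 4948 TPM in SSP25. MT-ND3 (M:10059-10404) measured 7346, 8925, 7857 and 10279.6 TPM in SNU1079 and 3072, 3505, 4063 and 4902 TPM in SSP25. In SNU1079 these 3 mRNAs stood highest with the combination, then BETp, then mTORi, then vehicle, while in SSP25 mTORi stood above BETp. MT-ND4L measured 12093, 14788, 12753 and 16804 TPM in SNU1079 and 4491, 5415, 6111 and 7283 TPM in SSP25. MT-ND4 measured 10004, 12040.3, 10442 and 13725 TPM in SNU1079 and 4602, 5618, 6628 and 7290.15 TPM in SSP25. Both followed the same order as MT-ND1. MT-ND5, the longest mRNA at 1812 bases, measured 2148, 2837, 1941 and 2742 TPM in SNU1079 and 1198, 1466, 1626 and 1963 TPM in SSP25. In SNU1079 it was lowest with mTORi and highest with BETp.

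Complex III holds a single mitochondrial product, cytochrome b. Its mRNA MT-CYB (M:14747-15887) measured 4721, 5441, 5408 and 6075 TPM in SNU1079 and 3198, 3599, 4223 and 4475 TPM in SSP25. Of the 13 mRNAs it had the smallest change with the combination, at 0.42 ± 0.09 (limma adjusted p = 0.0614).

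The CO mRNAs encode the catalytic core of complex IV, which passes electrons to oxygen. MT-CO1 (M:5904-7445) measured 12719, 14481, 15116 and 18178 TPM in SNU1079 and 8249, 9865, 12888 and 14642 TPM in SSP25. Every treated library stood above the vehicle library of its line, and the combination stood above each single drug. MT-CO2 (M:7586-8269) measured 19513, 22852, 18958 and 24406 TPM in SNU1079 and 7411, 9214, 10559 and 13090.1 TPM in SSP25. MT-CO3 (M:9207-9990) measured 18187, 20109, 19351 and 22094 TPM in SNU1079 and 8143, 10358, 12353 and 14987 TPM in SSP25. With mTORi in SNU1079, MT-CO2 was below its vehicle value, whereas MT-CO1 and MT-CO3 were above theirs.

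The ATP mRNAs encode membrane subunits of ATP synthase and are read from a shared transcript. MT-ATP8 measured 20369, 24073, 22359.5 and 27352 TPM in SNU1079 and 5576, 6293, 7386 and 8876 TPM in SSP25. MT-ATP6 measured 11274, 13177, 12826 and 15225 TPM in SNU1079 and 4053, 4997, 5517 and 6347 TPM in SSP25. For both, each drug alone lay above vehicle and the combination above each drug, in both lines.

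Against vehicle, BETp gave higher values for all 13 mRNAs in both lines, from 0.19 ± 0.09 for MT-CYB to 0.41 ± 0.18 for MT-ND6 on the log2 scale, with a median of 0.27 against -0.07 over all genes tested. That median ran from 0.14 to 0.39 with 1 library left out and was 0.13 under quantile normalization, where 11 of the 13 stayed above 0, and MT-CO1 (-0.04) and MT-ND3 (-0.03) did not. Here and below, quantile normalization keeps only the rank of a gene in its library. It can therefore shrink a joint rise of genes with very high values, such as these mRNAs (1198 to 27352 TPM). Of all genes, 18.2% were higher in both lines. None of the 13 passed the test (limma adjusted p from 0.508 to 0.661, with 2 at an unadjusted p under 0.05, as were 8.90% of all genes), in a comparison that called 0.00623% of genes. The median per line was 0.27 in SNU1079 and 0.28 in SSP25. MT-ND6 in SNU1079 had the largest value of either line, 0.51.

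The mTORi comparison gave unlike values in the 2 lines, a difference that did not pass the test given below. In SSP25 all 13 mRNAs were higher than with vehicle, from 0.40 for MT-CYB to 0.65 for MT-ND2, with a median of 0.48. In SNU1079 the median was 0.09, 10 of 13 were higher, and MT-ND5 (-0.15), MT-ND6 (-0.12) and MT-CO2 (-0.04) were lower. Thus 10 of 13 were higher in both lines, where 12.2% of all genes were. The mean of both lines was largest for MT-CO1, 0.45 ± 0.12 (limma adjusted p = 0.413). None of the 13 passed the test, 5 had an unadjusted p under 0.05 (10.3% of all genes did), and the comparison called 0.0125% of genes. Medians over the 13 and over all genes were 0.29 and -0.11, and the former was 0.11 to 0.41 with 1 library left out and 0.13 under quantile normalization, with MT-CO2 at -0.03.

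With the combination all 13 mRNAs lay above vehicle in both lines, as did 13.2% of all genes. The mean change ran from 0.42 ± 0.09 for MT-CYB to 0.72 ± 0.16 for MT-ND1, and the median was 0.57 against -0.19 over all genes. In SNU1079 the median was 0.43 (range 0.28 to 0.60) and in SSP25 0.70 (0.48 to 0.88). MT-CO1 rose by 0.67 ± 0.12 (limma adjusted p = 0.0474) and MT-ATP6 by 0.54 ± 0.09 (adjusted p = 0.0481). The other 11 had adjusted p from 0.0541 to 0.120, and all 13 had an unadjusted p under 0.05, as did 25.8% of all genes. Calls made up 1.81% of all genes, 0.293% higher (47 genes) and 1.52% lower (244), against 12 higher and 9 lower under quantile normalization and 25 and 56 after rescaling to the nuclear total. Both calls were close to the threshold, and neither held with any 1 of the 8 libraries left out (0 of 13 called each time) or with a pseudocount of 0.1 (0 of 13). Quantile normalization, which moved the median of all genes from -0.19 to 0.00, put MT-CO1 at 0.09 and MT-ATP6 at 0.21 and the median of the 13 at 0.26, still with 13 of 13 above 0. Rescaling to the nuclear total put the median of the 13 at 0.65 and that of all genes at -0.13, with 0 of 13 called.

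**Figure D2:**
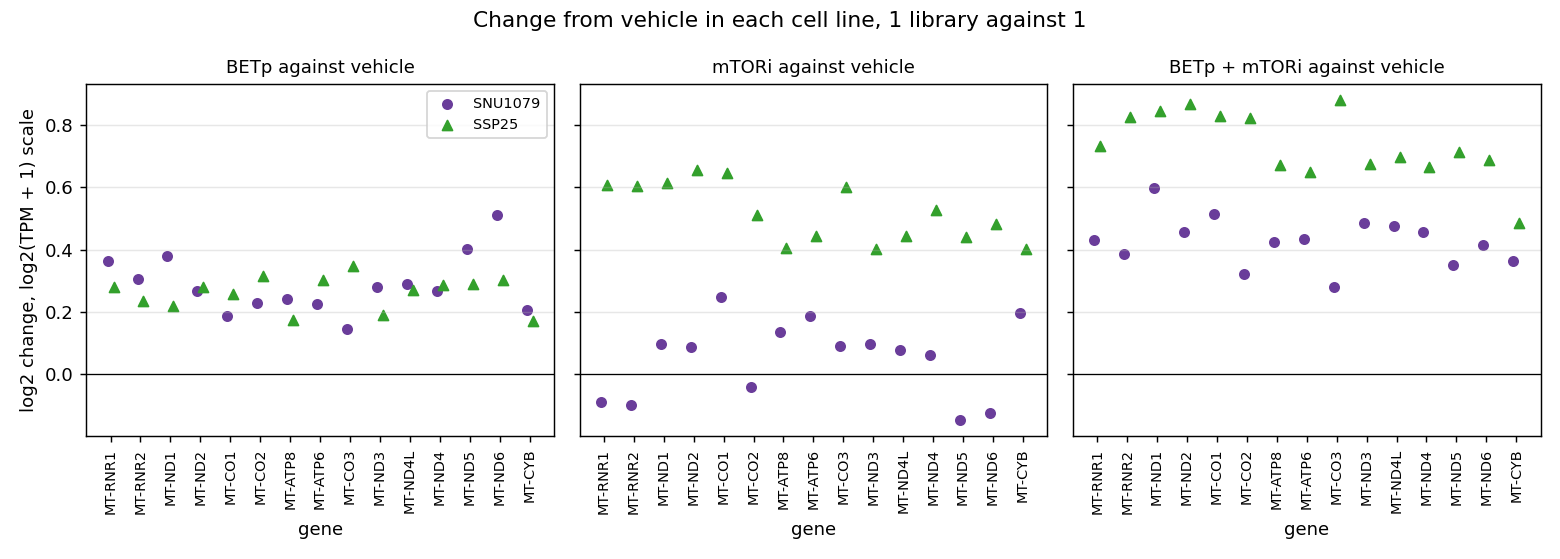
Log2 change from vehicle of each mitochondrial rRNA and mRNA, in genome order, for BETp, mTORi and the combination; each point is 1 library against the vehicle library of its line (circles SNU1079, triangles SSP25), on the log2(TPM + 1) scale. Under BETp the lines intermingle, under mTORi every SSP25 point (0.40 or more) lies above every SNU1079 point (0.25 or less), and under the combination each gene is higher in SSP25.

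Adding the second drug to the first was also compared. Against BETp alone, the combination was higher in both lines for 11 of 13 mRNAs (13.3% of all genes), with MT-ND5 and MT-ND6 lower in SNU1079 and a median of 0.31 (0.21 to 0.42 with 1 library left out, 0.11 under quantile normalization). Against mTORi alone the mean difference ran from 0.13 for MT-CYB to 0.38 for MT-ND5, with a median of 0.29 (0.12 to 0.47 with 1 library left out, 0.12 under quantile normalization). Under quantile normalization MT-CYB in the former (-0.07) and MT-CO1 (-0.31) and MT-CO3 (-0.09) in the latter lay below 0. No mRNA or rRNA passed the test in either, where limma called 0% and 0.0125% of genes and 8 and 4 of the 13 mRNAs had an unadjusted p under 0.05, as did 11.5% and 13.4% of all genes. The combination minus the sum of both single effects lay between -0.06 for MT-CYB and 0.09 for MT-ND3, with SE of 0.13 to 0.25. None of the 13 passed (adjusted p = 1.00 to 2 decimals, 0 at an unadjusted p under 0.05 against 2.00% of all genes), and 0% of all genes did. These SE are near the size of the single effects, which ran from 0.15 to 0.45 over the 13 mRNAs.

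Averaged over the presence of the other drug, BETp gave 0.16 ± 0.06 for MT-CYB to 0.39 ± 0.12 for MT-ND6. All 13 mRNAs were higher in 4 of 4 matched pairs, as were 8.88% of all genes, with MT-CO1 at -0.17 instead of 0.22 ± 0.07 under quantile normalization. None passed (smallest limma adjusted p = 0.0774, for MT-ATP6, and 13 at an unadjusted p under 0.05, as were 22.8% of all genes), while 1.82% of all genes did, 74 higher and 218 lower (112 and 63 under quantile normalization, 63 and 89 rescaled to the nuclear total). mTORi averaged over BETp gave 0.16 ± 0.12 for MT-ND6 to 0.45 ± 0.07 for MT-CO1, with 10 of 13 higher in 4 of 4 pairs against 4.59% of all genes. The exceptions were MT-CO2, MT-ND5 and MT-ND6, and under quantile normalization MT-CYB was at -0.02. MT-CO1 rose (adjusted p = 0.0467), the 1 mRNA called, where 1.05% of genes were called, 26 higher (0.162%) and 142 lower (3 and 6 under quantile normalization, 17 and 32 rescaled). With any 1 library left out it was not called.

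The effect of mTORi on mitochondrial mRNAs had lower values in SNU1079 than in SSP25 for all 13. The difference, SNU1079 minus SSP25 on the log2 scale, ran from -0.18 ± 0.07 for MT-CYB to -0.54 ± 0.07 for MT-ND6, and was -0.61 ± 0.08 for MT-RNR2. All 13 had an unadjusted p under 0.05 in a model with 2 residual degrees of freedom, as did 14.2% of all genes, but none passed over all genes (limma adjusted p from 0.227 to 0.334), and that test called 0% of all genes. Under quantile normalization the median difference was -0.35, with 12 of 13 below 0. The BETp effect differed between lines by -0.14 ± 0.06 for MT-CO3 to 0.27 ± 0.07 for MT-ND6, taken the same way. None passed (smallest adjusted p = 0.282), 2 had an unadjusted p under 0.05 (12.4% of all genes did), and 0.00623% of all genes were called.

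As a share of the TPM total, the members took 14.4% to 19.2% in SNU1079 and 5.99% to 10.1% in SSP25. The share was higher in 4 of 4 pairs with BETp present (mean difference 2.35 points), in 4 of 4 with mTORi present (2.11 points) and in 4 of 4 in SNU1079 (8.52 points). Each of these had an exact p = 0.13, adjusted 0.214 over the 12 tests.

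Within mitochondrial mRNA, MT-ND6, the light strand's only mRNA, was set against the heavy-strand mRNAs. As counting by strand is not stated, MT-ND6 values may hold RNA of either strand and cannot be read as light-strand output alone. MT-ND6 measured 1997, 2843, 1835 and 2665 TPM in SNU1079 and 1311, 1615, 1831 and 2111 TPM in SSP25. As a share of mitochondrial mRNA TPM it was 1.54%, 1.85%, 1.32% and 1.54% in SNU1079 and 2.33%, 2.38%, 2.27% and 2.23% in SSP25. The lines did not overlap, and SNU1079 was lower in 4 of 4 matched treatments with a mean difference of -0.742 points (exact p = 0.13, adjusted 0.214). Its share was lower with mTORi present in 4 of 4 pairs, by 0.0664 to 0.314 points (exact p = 0.13, adjusted 0.214). With BETp present it was higher in 3 of 4 pairs, by 0.136 points on average, or 0.0765 to 0.195 with a library left out (exact p = 0.25, adjusted 0.375).

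MT-ND5, its heavy-strand neighbour, ran close to MT-ND6. Its share of mitochondrial mRNA TPM was 1.65%, 1.85%, 1.40% and 1.58% in SNU1079 and 2.13%, 2.16%, 2.01% and 2.07% in SSP25. MT-ND6 was 0.93 to 1.00 times MT-ND5 in SNU1079 and 1.08 to 1.13 times in SSP25, and the lines did not overlap. Mean mTORi effects were smallest for the 2 genes that meet at the junction shown above. They were 0.15 ± 0.17 for MT-ND5 and 0.18 ± 0.18 for MT-ND6. The genes lie on opposite strands, whose reads may not have been kept apart in counting. MT-CO2, at 0.23 ± 0.15, lay within these SE. The low means came from SNU1079 (-0.15 and -0.12). In SSP25 they were 0.44 and 0.48, above MT-CYB (0.40), MT-ND3 (0.40) and MT-ATP8 (0.41). The log2 change of the 12 heavy-strand mRNAs had a median of 0.30 under mTORi, 0.27 under BETp and 0.58 under the combination, against 0.18, 0.41 and 0.55 for MT-ND6.

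**Figure D3:**
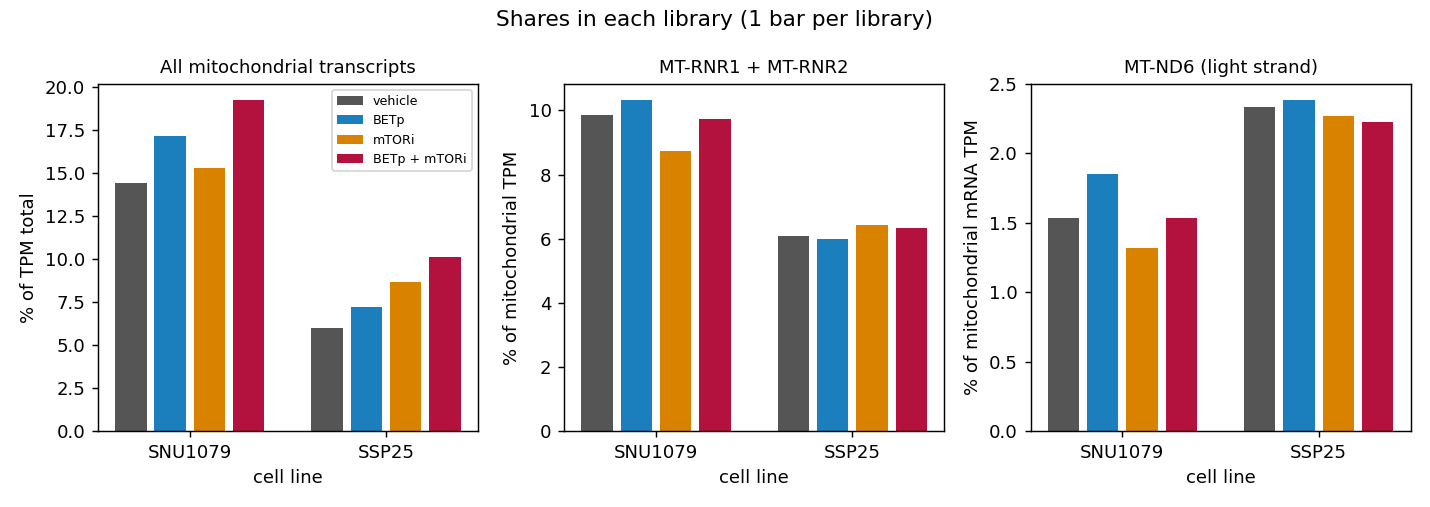
Shares in each of the 8 libraries, 1 bar per library, for all mitochondrial transcripts as % of the TPM total (left), both rRNAs as % of mitochondrial TPM (middle) and MT-ND6 as % of mitochondrial mRNA TPM (right). The first and middle shares are higher in SNU1079 and the MT-ND6 share is higher in SSP25, with no overlap between lines in any panel.

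The overlapping pairs differed in proportion between the lines more than between treatments. MT-ATP8 per unit length was 1.81, 1.83, 1.74 and 1.80 times MT-ATP6 in SNU1079 and 1.38, 1.26, 1.34 and 1.40 times in SSP25. MT-ND4L was 1.21, 1.23, 1.22 and 1.22 times MT-ND4 in SNU1079 and 0.98, 0.96, 0.92 and 1.00 times in SSP25. In each pair the shorter gene was relatively higher in SNU1079 with every treatment, and no SSP25 value reached the lowest SNU1079 value. How the authors assigned reads in the shared bases and scaled such short genes is not stated. These ratios of TPM therefore need not be ratios of the RNAs themselves.

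By complex, mitochondrial mRNA TPM were split in similar proportions under all treatments of a line. Complex I took 32.4% to 34.8% in SNU1079 and 34.2% to 34.8% in SSP25, complex III 3.50% to 3.89% and 4.72% to 5.69%, complex IV 37.3% to 38.8% and 42.4% to 45.1%, and complex V 24.3% to 25.3% and 16.0% to 17.1%. The lines overlapped for complex I and were apart for the others, with complex V higher and complexes III and IV lower in SNU1079.

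Between the lines, all 13 mRNAs and both rRNAs were called higher in SNU1079 by limma, as were 39.1% of genes, and 75.6% of genes were called in either direction. For this comparison the 4 treatments stood as repeats of 1 culture series per line, so its p-values compare these 2 lines only. A difference in how the libraries of each line were handled cannot be told apart from the line. In 4 of 4 matched treatments all 15 were higher, as were 39.8% of genes. The mean log2 difference of the 4 treatments ran from 0.43 ± 0.19 for MT-CO1 (SD of the 4 differences, 1.35-fold) to 1.76 ± 0.17 for MT-ATP8 (3.38-fold). The largest adjusted p was 0.00916, for MT-ND6. The rRNAs stood at 1.74 ± 0.35 for MT-RNR1 and 1.69 ± 0.37 for MT-RNR2. The median of the 13 was 0.83 against 0.05 over all genes, and under quantile normalization it was 0.43, with 9 of 13 called and MT-CO1 turned to -0.14. Rescaled to the nuclear total, that median was 0.97 against 0.18 over all genes, with 13 called. The difference was smaller with mTORi, where MT-ND6 was equal in both lines (0.00) and MT-CO1 differed by 0.23, against 0.61 and 0.62 with vehicle.

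These line differences varied with gene length among the 13 mRNAs. MT-ATP8, MT-ND4L and MT-ND3, the shortest at 207, 297 and 346 bases, differed by 1.76, 1.29 and 1.16, and MT-CO1 and MT-ND5, the longest at 1542 and 1812 bases, by 0.43 and 0.63. Across the 13 genes Pearson's r was -0.66 and Spearman's rho -0.69, given as a description since genes of the same libraries and transcripts are not independent. MT-ND6 at 525 bases lay below mRNAs of similar length, at 0.44, and both rRNAs lay above them. With the rRNAs included r was -0.33 and rho -0.43. The part of length scaling in this relation was not tested.

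**Figure D4:**
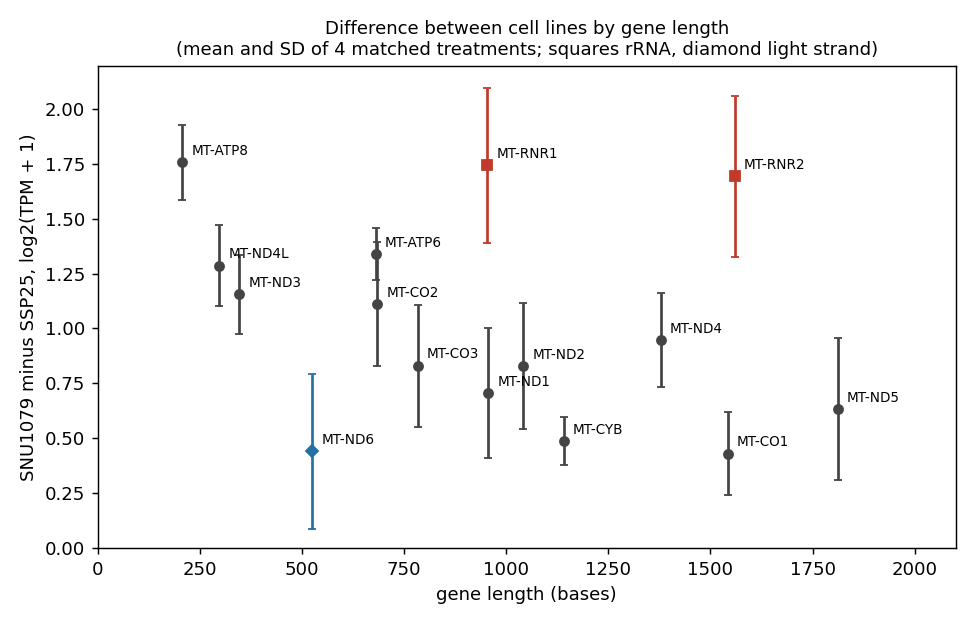
Mean difference between SNU1079 and SSP25 on the log2(TPM + 1) scale against gene length in bases, for 13 mRNAs and 2 rRNAs (squares), with MT-ND6 as a diamond; error bars are the SD of the 4 matched treatments. The shortest mRNA, MT-ATP8, differs most (1.76), and the rRNAs (1.74 and 1.69) stand above mRNAs of like length.

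Nuclear copies of mitochondrial DNA can take reads from these genes. Of 20 such copies listed, 5 passed the filter, and 4 of them were called higher in SNU1079, where 39.1% of all genes were. These 5 lie in a block on chromosome 1 (GRCh37) that holds 7 copies. MTATP6P1 (chr1:569076-569756) measured 635 to 1923 TPM, 12.3% to 12.8% of MT-ATP6 in SNU1079 and 14.1% to 15.7% in SSP25. It matched MT-ATP6 at 98.5% of 681 bases, with 10 that differ, and 11.9% of all stretches of 100 bases in MT-ATP6 were found unaltered on chromosome 1. The stretch with 4 of these differences, in capitals, is shown for the gene (chrM:8599-8718) and for its copy (chr1:569148-569267), both plus strand, because reads are told apart by such bases alone.
MT-ATP6: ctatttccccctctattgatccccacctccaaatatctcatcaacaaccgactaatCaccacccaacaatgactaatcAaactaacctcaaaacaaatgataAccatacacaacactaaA
MTATP6P1: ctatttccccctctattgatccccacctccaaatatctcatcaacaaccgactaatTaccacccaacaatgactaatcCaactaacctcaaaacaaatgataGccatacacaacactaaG
MTND2P28 held 1.98% to 2.79% of the level of MT-ND2 and MTCO1P12 0.219% to 0.350% of that of MT-CO1, although 26.1% and 27.9% of the 100-base stretches of those genes were unaltered on chromosome 1. MTND1P23 and MTCO3P12 stayed at or below 4.63 and 1.39 TPM, MTCO2P12 at or below 0.78 TPM, and MTATP8P1 was listed at 0. MTCO1P12 rose with the combination, by 0.91 ± 0.16 (limma adjusted p = 0.0460, 0.0527 to 0.179 with a library left out and 0.0545 or more in 6 of 8 other settings), and MTATP6P1 changed by 0.45 ± 0.08 (adjusted p = 0.0518). How many reads of each copy came from the mitochondrial gene cannot be told from these values. Adding each copy's TPM to its gene left 2 mRNAs called with the combination, 1 with mTORi averaged over BETp and 13 between the lines, the counts given above.

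Nuclear genes for subunits of the same complexes mostly had lower values with the combination, as did the median gene. Of 37 nuclear complex I genes, 30 were lower in both lines with the combination than with vehicle, as were 8 of 9 for complex III, 9 of 11 for complex IV, 15 of 16 for complex V and 2 of 4 for complex II, against 51.0% of all genes. Median log2 changes were -0.26, -0.26, -0.14, -0.27 and -0.12 in that order, beside -0.19 over all genes. The mitochondrial medians in the plot of subunits by genome were all above 0.4. NDUFS6, an accessory subunit of complex I, fell by 0.66 ± 0.10 (limma adjusted p = 0.0394) from 100 to 58.1 TPM in SNU1079 and 180 to 123 TPM in SSP25, the 1 nuclear subunit called, where 1.52% of all genes were called lower. With mTORi averaged over BETp, NDUFS6 (-0.42 ± 0.07, adjusted p = 0.0488), ATP5B (-0.32 ± 0.05, 0.0428) and ATP5G1 (-0.39 ± 0.07, 0.0481), the catalytic beta and a membrane ring subunit of ATP synthase, fell, where 0.884% of genes were called lower. With BETp averaged over mTORi, NDUFC1 of complex I was the 1 nuclear subunit called (-0.49 ± 0.08, adjusted p = 0.0380), where 1.36% of genes were called lower. Here and with the combination, 1 call among the 37, 9, 11, 16 and 4 subunit genes was near the share over all genes. With any 1 library left out NDUFS6, ATP5B and ATP5G1 were not called (adjusted p from 0.0539 to 0.163 for NDUFS6, and up to 0.167 for the others), and NDUFC1 was called in 1 of 8 such fits. Most other settings also ended these calls, as given in the closing section.

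**Figure D5:**
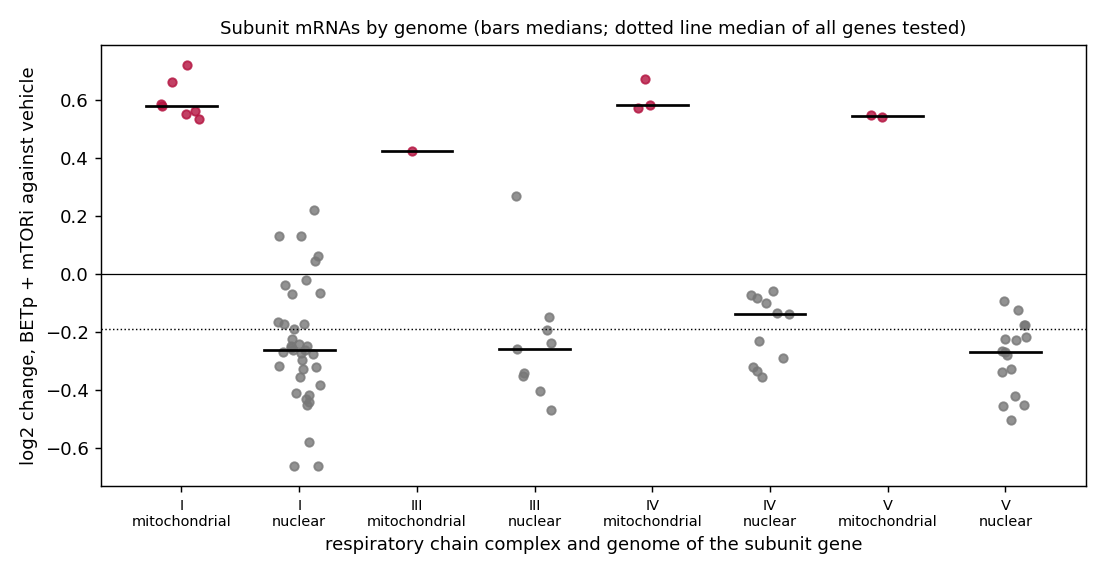
Log2 change with the combination against vehicle (mean of 2 lines) for mRNAs of respiratory chain subunits, by complex and by the genome that encodes them; each point is 1 gene, bars are medians and the dotted line is the median of all genes tested (-0.19). Mitochondrial subunits lie between 0.42 and 0.72 and nuclear medians between -0.27 and -0.14.

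Genes for the machinery of mitochondrial RNA were examined next. With the combination, 1.81% of all genes were called, 51.0% were lower in both lines and the median was -0.19. Of 8 genes of mitochondrial DNA transcription 0 were called and 6 were lower in both lines (median -0.28). TFAM, which packages mitochondrial DNA and starts its transcription, measured 50.4, 47.8, 47.7 and 40.1 TPM in SNU1079 and 32.3, 27.3, 22.1 and 21.3 TPM in SSP25, a change of -0.45 ± 0.13 with the combination (limma adjusted p = 0.104). POLRMT changed by -0.24 ± 0.11 (adjusted p = 0.218) and TFB2M, an initiation factor, by -0.10 ± 0.13 (0.660). In both lines TFAM was lowest with the combination, where the mitochondrial share was highest. POLRMT and TFB2M were lowest with the combination in SNU1079, but with BETp in SSP25 (20.07 and 20.2 TPM). Between the lines TFAM was higher in SNU1079, as was the share, and a link was not tested. LRPPRC and SLIRP, partners that stabilise mitochondrial mRNAs, changed by -0.03 ± 0.09 (adjusted p = 0.852) and -0.41 ± 0.15 (0.159). None of 14 genes of RNA stability and turnover (median -0.22, 10 lower in both), 7 of RNA cleavage (-0.32, 5 lower), 11 of rRNA modification (-0.23, 9 lower) and 8 regulators of mitochondrial content (-0.22, 4 lower) passed the test. PPARGC1A, a coactivator of mitochondrial biogenesis, changed by -0.19 ± 0.24 (adjusted p = 0.643).

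Of 12 genes of mitochondrial DNA replication and upkeep, 7 were lower in both lines with the combination (median -0.16), against 51.0% of all genes. TK2 was called. TK2, the mitochondrial thymidine kinase, measured 21.6, 13.5, 22.8 and 13.1 TPM in SNU1079 and 28.3, 16.8, 26.1 and 16.2 TPM in SSP25. It was lower with BETp in 4 of 4 matched pairs, as were 23.2% of all genes. It fell by 0.72 ± 0.12 with the combination (limma adjusted p = 0.0438), where 1.52% of all genes were called lower. With BETp averaged over mTORi it fell by 0.69 ± 0.07 (limma adjusted p = 0.00889), where 1.36% were called lower. The former call was lost with any 1 library left out (adjusted p from 0.0598 to 0.169) and in 6 of 8 other settings (0.0523 or more), and the latter held in 7 of 8 such fits, all but that without the SNU1079 combination library (adjusted p = 0.0514). POLG, the mitochondrial DNA polymerase, and C10orf2, the Twinkle helicase, changed by -0.04 ± 0.15 (adjusted p = 0.882) and 0.03 ± 0.17 (0.918) with the combination.

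Between the lines, 6 of the 8 transcription genes were called higher in SNU1079 and 0 lower, against 39.1% and 36.6% of all genes. The other lists were mixed. Called higher and lower were 7 and 5 of 12 replication genes and 6 and 4 of 14 RNA stability genes. For RNA cleavage they were 1 and 2 of 7, for rRNA modification 4 and 7 of 11 and for the regulators 3 and 3 of 8. The limit on p-values between the lines given above holds here too. POLRMT differed by 0.79 ± 0.07 (limma adjusted p = 2.22e-05), TFAM by 0.84 ± 0.09 (4e-05) and LRPPRC, with 124 to 148 TPM in SNU1079 and 42.6 to 51.4 TPM in SSP25, by 1.49 ± 0.06 (1.88e-07). SLIRP was higher in SNU1079 as well (0.83 ± 0.10, 0.000139), while POLG (-0.42 ± 0.11, 0.00903) and PPARGC1A (-1.73 ± 0.17, 3.34e-05) were lower. Nuclear complex I genes went against the mitochondrial ones, with 8 of 37 called higher and 23 lower in SNU1079 and a median of -0.47, where 36.6% of all genes were called lower.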

How the data were processed

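RNA sequencing libraries (strand marked by the dUTP method) were made from 2 CCA lines under 4 treatments. The authors deposited TPM per gene, 1 table per line with 56269 genes. Per the labels, the processing notes of the authors name GRCh37, DESeq2 and edgeR. The aligner, annotation, RNA selection and strand setting of the counting were not found in the sources used. Library totals were 998559 to 999362, and 13308 to 14526 genes reached 1 TPM in a library. TPM hold no depth, so no counting error could be given.

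Groups were taken from the sample labels, and 0 sample columns were left unused. Values were analysed as log2(TPM + 1), which understates changes of low genes, for the 16060 genes that reached 1 TPM in 2 or more libraries. limma 3.58.1 (R 4.3.3, eBayes with trend) was used after a check on simulated data: treatment with cell line as a block (3 residual degrees of freedom), line, BETp and mTORi averaged (4), and line by drug (2). Two-sided p-values were Benjamini-Hochberg adjusted across all genes tested, and a gene was called under 0.05. Libraries were paired by cell line: deviations from the treatment mean correlated between treatments at r = 0.911 to 0.936 across genes. Shares and ratios were tested by exact two-sided sign-flip permutation over 4 pairs (scipy 1.17.1), 12 tests in all; the 3 planned for the tRNA share could not be made because it was 0 in each library. Alternatives were a filter at 5 TPM or none, a pseudocount of 0.1, rescaling to the nuclear TPM total, quantile normalization, robust eBayes, a fit with no block and omission of each library in turn. Nuclear copies added to their genes were an alternative chosen after seeing the data.

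Positions and strands are those of GENCODE 44 on GRCh37, sequences those of GRCh37, and nuclear copies were aligned with edlib 1.3.9.post1. Text named all mRNAs and rRNAs, 8 set nuclear genes, up to 4 called members of each list, and nuclear copies at 1 TPM or more, with markers; MTATP8P1 and MTCO2P12 were named after their values were seen. Members and gene lists were chosen with earlier results of these data known.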

Additional observations from a re-analysis of the deposited data

Results flagged for a closer look

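In 6 cases the share of an RNA class moved one way in both SNU1079 pairs and the opposite way in both SSP25 pairs. These differences between lines were not tested, and each rests on 4 pairs of single libraries, whose noise is unknown. Values are percentage points, the drug alone first and the drug on top of the other drug next. The rRNA share of mitochondrial TPM moved with BETp by 0.464 and 0.990 in SNU1079 and by -0.115 and -0.104 in SSP25, a difference of the means of 0.837. With mTORi it moved by -1.13 and -0.601 in SNU1079 and by 0.330 and 0.341 in SSP25, a difference of -1.20. The complex I share of mitochondrial mRNA TPM moved with BETp by 1.54 and 2.19 in SNU1079 and by -0.220 and -0.313 in SSP25, a difference of 2.13. The complex IV share moved with BETp by -1.37 and -1.08 in SNU1079 and by 1.08 and 0.738 in SSP25, a difference of -2.13. With mTORi it moved by -0.379 and -0.0910 in SNU1079 and by 1.95 and 1.62 in SSP25, a difference of -2.02. The complex V share moved with mTORi by 0.952 and 0.307 in SNU1079 and by -1.16 and -0.605 in SSP25, a difference of 1.51. Shares of a whole are tied, so the complexes do not give independent values.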

How the results depend on the processing

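The count of 2 mRNAs called with the combination was 0 with a pseudocount of 0.1, without a filter, under quantile normalization, after rescaling to the nuclear total, with robust eBayes and with no block for cell line, 9 with a filter at 5 TPM, and 0 with each library left out. The count of 1 called with mTORi averaged over BETp was 0 under the first 5 of these, 4 with the 5 TPM filter, and 0 with each library left out. A higher filter tests fewer genes; the cause of the other changes was not tested. Without the block, which pairs libraries by line, 0 mRNAs were called in the other pairwise comparisons too, as with it. The 13 called between the lines were 11 without a filter and 9 under quantile normalization, and 13 with each library left out. MT-CO1 reversed there to -0.14 under quantile normalization. The mean change of the rRNA share with mTORi ran from -0.466 to 0.023 points with a library left out, and that of the log2 ratio of MT-RNR2 to MT-RNR1 with BETp from -0.0475 to 0.00477, with mTORi from 0.00100 to 0.0497 and between the lines from -0.0631 to -0.0172. Over all genes, calls with the combination were 291, against 86 with a pseudocount of 0.1, 44 without a filter, 657 at 5 TPM, 21 under quantile normalization, 81 rescaled, 9 with robust eBayes, 0 without the block and 0 to 145 with a library left out. For BETp averaged they were 292, and 0 to 476 over these alternatives, and for mTORi averaged 168, and 1 to 483. Of the values of the 15 members under these alternatives, 2397 kept direction and side of the threshold, 46 lost the call, 10 gained it, 1 reversed (MT-CO1, above) and 96 changed sign with no call in either fit, 67 of them departures from additivity. Without the SSP25 mTORi library, MT-ND5, MT-ND6 and both rRNAs lay below 0 with mTORi, and without the SSP25 BETp library MT-ND5 and MT-ND6 did so for the combination against BETp. Among nuclear genes, the calls of NDUFS6 in both comparisons, of ATP5B and ATP5G1, and of MTCO1P12 and TK2 with the combination held with the 5 TPM filter and with nuclear copies added. They were lost with a pseudocount of 0.1 (adjusted p from 0.0510 to 0.0571), without a filter (0.149 to 0.313), under quantile normalization (0.0545 to 0.188), rescaled (0.0605 to 0.0728), with robust eBayes (0.0927 to 0.129) and, for the combination, with no block (1). NDUFC1 also held with the pseudocount (0.0423), and TK2 with BETp averaged was lost without a filter alone (0.0950). Lone libraries left by omission were assumed to vary like the others, and depth could not be weighed.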
